A study of Caenorhabditis elegans with 2 samples.

Results

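The genes examined here were the 36 genes of the Caenorhabditis elegans mitochondrial genome, MtDNA, out of 46926 annotated genes. They comprised 12 protein-coding genes, 22 tRNA genes and 2 rRNA genes. They were selected on position, with regions of all the deposited lists on MtDNA in view, so the signals, ranks and coverage below are a description and no test was made of them. The samples were 2 biological replicates, in 1 group, of late embryos of mixed sex, synchronised by egg bleaching and labelled 3.3 hours of age. Worms of both replicates, strain OP748, carried the transgene wgIs748, which joins ceh-6 to TY1, EGFP and 3xFLAG tags and holds unc-119(+) in the unc-119(ed3) background. Sonicated chromatin of 200 to 800 bp from whole organisms was immunoprecipitated with an anti-GFP antibody. All samples analysed here carried the transgene and were precipitated, and the kind of control behind the authors' signals is not stated. With these samples, CEH-6 on MtDNA and MtDNA recovered for another reason cannot be told apart. Whether the 2 replicates came from separate cultures is not stated beyond the label of biological replicate.

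CEH-6 is a POU homeodomain transcription factor, a class of protein that acts on nuclear genes. MtDNA is a small circle, present in many copies per cell, that is transcribed in the mitochondrial matrix by a dedicated polymerase. In C. elegans all its genes lie on the same strand and are packed end to end, with an AT-rich non-coding stretch as the main interruption. The proteins it encodes are core subunits of the respiratory chain and ATP synthase, and its rRNAs and tRNAs serve the mitochondrial ribosome.

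Regions called on replicate 1, on replicate 2 and on the pooled reads came as lists of 30000 each. A further list held 741 peaks kept by the irreproducible discovery rate (IDR) method, which weighs how regions rank in both replicates. Each region carries the authors' own signal against a control, on a scale not stated, and a summit, the position the authors give as its peak. Rank 1 is the strongest region of a list. The depth of the libraries is unknown, because the lists hold no read counts. The 741 IDR peaks had the coordinates and signals of the 741 strongest pooled regions, so an IDR peak was in effect a pooled region above a signal limit, with 105.701 as the last value inside and 105.570 as the first outside.

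MtDNA was covered far more densely than the nuclear chromosomes. Its 13794 bp held 23 pooled regions, 24 regions of replicate 1 and 19 of replicate 2. All 23 pooled regions were IDR peaks, against 2.40% of the nuclear pooled regions. The pooled list had 1.67 regions per kb on MtDNA and 0.299 per kb on the nuclear chromosomes, and the IDR list 1.67 and 0.00716. Regions covered 53.5% of MtDNA in the pooled list, 55.8% in replicate 1 and 45.7% in replicate 2, while the same lists covered 11.6%, 11.3% and 11.8% of the nuclear genome. The bases covered in all these lists together made up 29.5% of MtDNA, and 73.7% was covered in at least 1. The pooled signals on MtDNA ran from 105.9 to 1385 with a median of 384.7, and the nuclear pooled regions had a median of 40.4. Of the 20 strongest regions of each list, 4 lay on MtDNA in the pooled list, 5 in replicate 1 and 7 in replicate 2. The weakest pooled region on MtDNA, in l-rRNA, ranked 735.

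**Figure D1:**
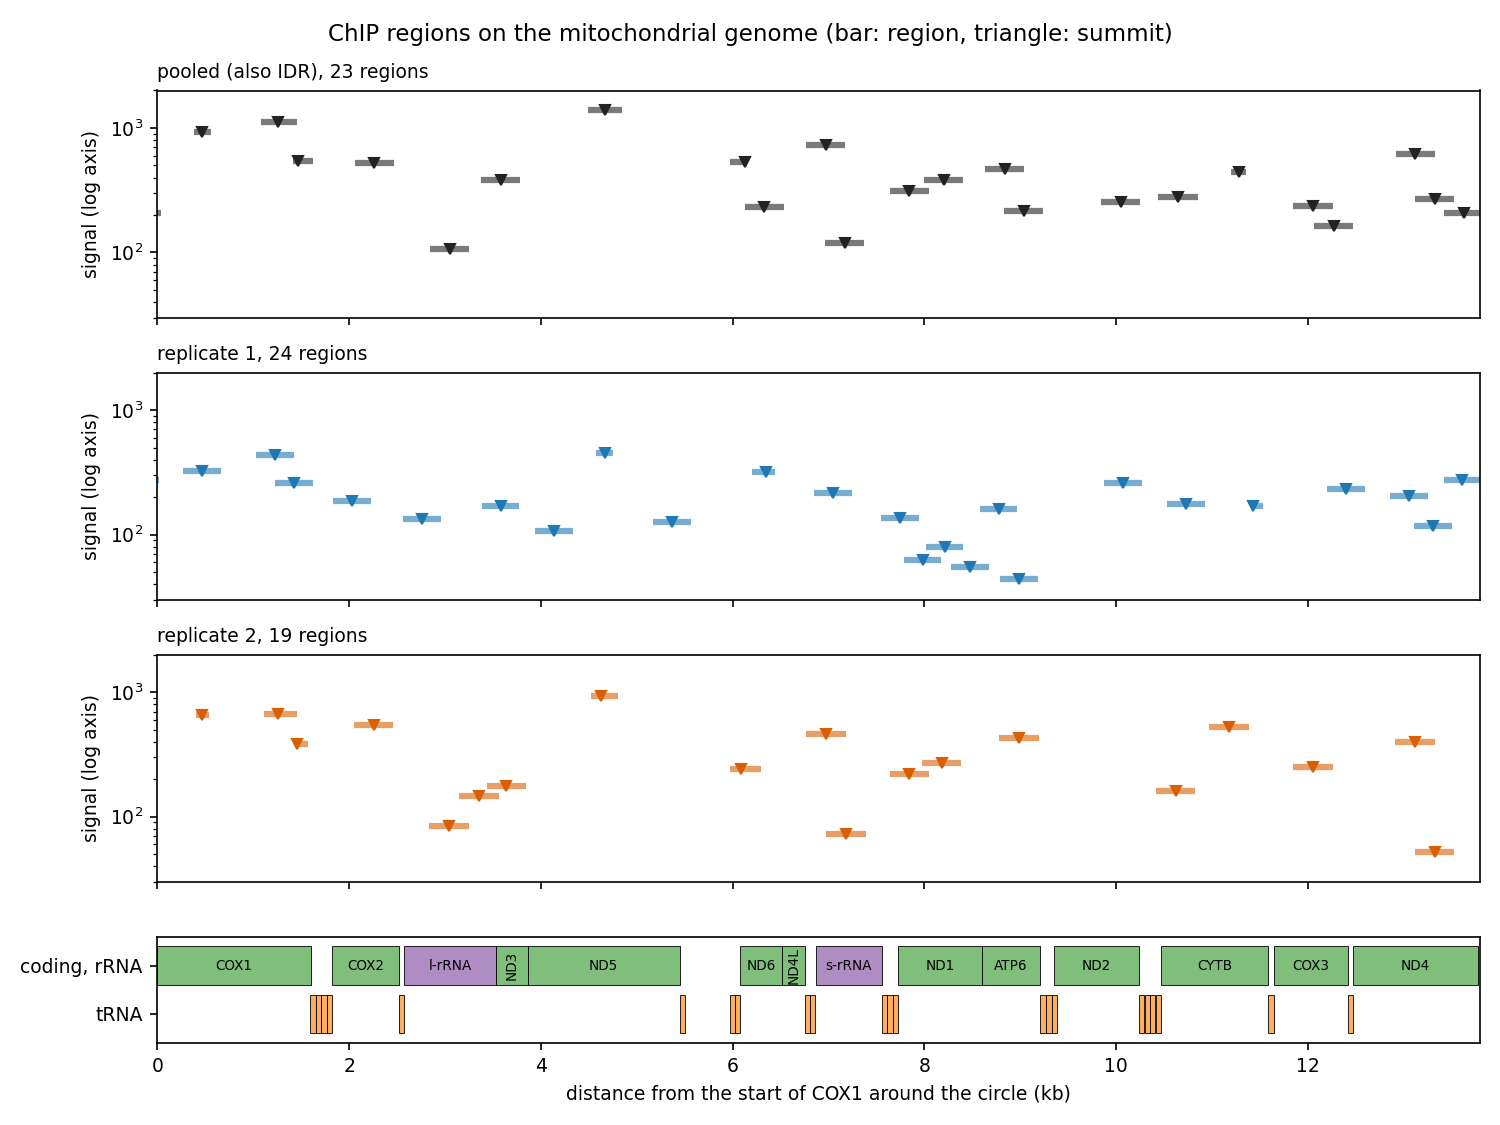
Signal of each region on MtDNA (log axis) against distance from the start of COX1 around the circle, in kb, for the pooled list and each replicate; bars span regions, triangles mark summits, and the lowest row shows the genes. The tallest regions, in ND5 and COX1, stand at like places in every row, while the stretch between ND5 and ND6 holds no summit.

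The 5 strongest pooled summits lay in ND5, in COX1 at a downstream and an upstream position, in s-rRNA and in ND4. Their sequences are shown because each lay in a region of both replicates, with capitals spanning the lowest to the highest summit of the lists. They were read from the RefSeq copy of WBcel235, the assembly that ce11 names, on the + strand that carries the genes. The windows are MtDNA:12442-12542, MtDNA:9031-9131, MtDNA:8240-8340, MtDNA:952-1084 and MtDNA:7093-7206.
ND5: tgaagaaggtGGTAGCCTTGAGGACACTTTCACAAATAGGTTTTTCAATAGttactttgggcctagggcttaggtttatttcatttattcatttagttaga
COX1 downstream: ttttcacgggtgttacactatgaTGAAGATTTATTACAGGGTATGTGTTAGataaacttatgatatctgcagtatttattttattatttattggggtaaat
COX1 upstream: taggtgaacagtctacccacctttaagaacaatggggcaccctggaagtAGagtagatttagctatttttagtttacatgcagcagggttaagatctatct
s-rRNA: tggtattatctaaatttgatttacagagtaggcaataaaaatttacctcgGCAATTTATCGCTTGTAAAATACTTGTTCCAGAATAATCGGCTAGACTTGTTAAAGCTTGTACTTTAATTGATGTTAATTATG
ND4: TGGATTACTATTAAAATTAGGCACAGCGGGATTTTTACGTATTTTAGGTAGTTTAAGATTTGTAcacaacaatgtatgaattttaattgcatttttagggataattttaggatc
The capitals cover 41 bases in ND5, 28 and 2 bases in COX1, 83 in s-rRNA and 64 in ND4. The upstream COX1 summit was thus placed within 2 adjacent bases by all the lists, whereas the s-rRNA summits were spread over 83 bases.

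The largest group of coding genes, 7 in all, encodes subunits of complex I, the NADH dehydrogenase that passes electrons to ubiquinone. All 7 complex I genes were overlapped by a pooled region, and together they held 10 pooled summits over 5647 bp. ND5 (WBGene00010967, bases 11691 to 13272) carried the strongest region of MtDNA, at 12322 to 12670, with a pooled signal of 1385. That region ranked 2 in the pooled list, 4 in replicate 1 (signal 448.5) and 1 in replicate 2 (signal 926.1). The summits stood at base 12492 in the pooled list and replicate 1, and at 12452 in replicate 2. ND5, the longest of the complex I genes here, had 22.1% of its length under pooled regions. In replicate 1 coverage of ND5 reached 53.8%, through further regions at 11762 to 12157 (rank 150) and 13001 to 13396 (rank 127) that overlapped no region of replicate 2, where coverage was 18.5%.

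ND4 (WBGene00010963, bases 6506 to 7808) held 3 pooled summits, at 7156, 7356 and 7662, with signals of 618.5, 266.5 and 206.2. The first ranked 23 in the pooled list, 47 in replicate 1 and 21 in replicate 2. The second was at rank 140 in replicate 1 but 1578 in replicate 2, the lowest rank of any MtDNA region. The third had rank 18 in replicate 1 and no region of replicate 2 at its summit. The order of the ND4 regions therefore differed between the replicates.

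ND1 (WBGene00010959, bases 1763 to 2635) had pooled summits at 1877 and 2233, with ranks 114 and 81. Replicate 2 placed regions at both, with summits at 1878 and 2213, and replicate 1 had its nearest summits at 1776 and 2244. ND1 was covered whole in replicate 1, for 77.3% in the pooled list and 75.4% in replicate 2. ND6 (WBGene00010957, bases 113 to 549) was the only coding gene wholly under pooled regions. Its pooled summit at 162, with signal 530.4 and rank 35, lay in a region of replicate 2 (rank 69) and in none of replicate 1. The other, at 362, with signal 233.2 and rank 182, lay in a region of replicate 1 (rank 13) and in none of replicate 2. Each ND6 summit thus lay in a region of a different replicate, although the replicate 2 region, bases 1 to 329, also overlapped the second pooled region.

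ND2 (WBGene00010961, bases 3389 to 4269) had 1 pooled summit, at 4083, with signal 252.1 and rank 155. Replicate 1 had a region there, at rank 24, and 41.2% of the gene covered, while no region of replicate 2 touched ND2. ND3 (WBGene00010966, bases 11356 to 11691) held a summit at 11406 with signal 385.2 and rank 80, found at the same base in replicate 1 (rank 76) and at 11468 in replicate 2 (rank 123). ND4L (WBGene00010958, bases 549 to 783), the shortest coding gene, held no summit in any list. A pooled region whose summit was in ND6 reached over 7.66% of it, and neither replicate covered any of it.

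CYTB (WBGene00000829, bases 4504 to 5621) encodes cytochrome b of complex III, which passes electrons on to cytochrome c. Its pooled summit at 4679, with signal 278.8 and rank 134, lay in regions of replicate 1 (rank 66) and replicate 2 (rank 141). The stronger summit, at 5317 with signal 445.9 and rank 56, lay in a region of replicate 2 that ranked 11, with its own summit 107 bp away at 5210, and in no region of replicate 1. Replicate 1 instead had a region at 5437 to 5569, rank 77, that overlapped neither the pooled list nor replicate 2. Both replicates thus had 2 regions in CYTB, but only 1 of them was shared.

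COX1, COX2 and COX3 encode the catalytic core of complex IV, cytochrome c oxidase. COX1 (WBGene00010964, bases 7827 to 9428) held 3 pooled summits, and both replicates had a region at each. Its downstream pooled summit at 9081, signal 1115, ranked 6 in the pooled list and in each replicate, with replicate summits at 9054 and 9081. The upstream summit at 8290, signal 930.9, ranked 8 in the pooled list, 12 in replicate 1 and 7 in replicate 2, with replicate summits at 8289 and 8290. A further summit at 9291, signal 539.0, ranked 32, 26 and 24. All 3 COX1 summits were therefore strong in both replicates, although 46.1% of the gene lay under pooled regions and the 369 bp from 8487 to 8855 lay under none of any list.

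COX2 (WBGene00010965, bases 9649 to 10348) had a pooled summit at 10088, signal 518.6 and rank 40. Replicate 2 had a region there at rank 10, and the COX2 region of replicate 1, rank 62, had its summit at 9854 and did not reach the pooled summit. COX3 (WBGene00010962, bases 5678 to 6449) had pooled summits at 6087 (signal 234.6, rank 180) and 6304 (signal 164.7, rank 321). The first lay in a region of replicate 2 alone, rank 61, and the second in a region of replicate 1 alone, rank 35. COX2 and COX3, like ND6, were thus covered in both replicates but had no pooled summit inside regions of both.

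ATP6 (WBGene00010960, bases 2634 to 3235) encodes a subunit of the proton channel of ATP synthase, complex V. Its coverage was 94.9% in the pooled list, 97.0% in replicate 1 and 69.1% in replicate 2. The pooled summits at 2870 (signal 469.5, rank 49) and 3072 (signal 216.0, rank 207) both lay in the only ATP6 region of replicate 2, with summit 3022 and rank 17. In replicate 1 they had regions of their own, at ranks 80 and 931.

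The rRNA genes, the RNA core of the mitochondrial ribosome, were covered in every list. The s-rRNA gene (WBGene00014454, bases 898 to 1593) had a summit at 1002 with signal 736.2, rank 13 in the pooled list, 42 in replicate 1 and 15 in replicate 2. A second, at 1204, had signal 119.3 and rank 566; the same replicate 1 region spanned both summits, and replicate 2 had a separate region at rank 590. The l-rRNA gene (WBGene00014472, bases 10403 to 11354) had 1 pooled summit, at 10874, with signal 105.9. Replicate 2 had a region there at rank 437 and another at 10976 to 11391 with rank 170, while the region of replicate 1 with its summit in l-rRNA lay at 10388 to 10783 with rank 118. The end of l-rRNA also lay under the pooled region at 11201 to 11610, signal 385.2 and rank 80, whose summit was in ND3. Regions of replicate 1 (rank 76) and replicate 2 (rank 123) with summits in ND3 reached into l-rRNA too. Strong and weak signal thus occurred within the same gene class.

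The 22 tRNA genes, which supply the amino acids for mitochondrial translation, held no summit in any list. They occupy 8.83% of MtDNA. With 23, 24 and 19 summits in the pooled list, replicate 1 and replicate 2, this count of 0 is given as a description. In the nuclear genome 139 of 718 IDR summits, or 19.4%, lay inside tRNA genes, which make up 0.0457% of it. Regions centred in neighbouring genes overlapped 11 mitochondrial tRNA genes in the pooled list, 9 in replicate 1 and 7 in replicate 2. tRNA-Glu, tRNA-Asn and tRNA-Tyr were overlapped in all these lists.

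No region of any list touched 8 tRNA genes: tRNA-Leu(UUR), tRNA-Ser(AGN), tRNA-Arg, tRNA-Gln, tRNA-Leu(CUN), tRNA-Met, tRNA-Asp and tRNA-Gly. Another 3, tRNA-Ser(UCN), tRNA-His and tRNA-Ala, were overlapped in replicate 1 alone. The 8 uncovered tRNA genes had a median GC content of 30.6% (14.8 to 35.2%), and the other 14 a median of 23.6% (18.9 to 30.6%). The longest run of neighbouring uncovered genes was tRNA-Met, tRNA-Asp and tRNA-Gly between COX1 and COX2. Its sequence, MtDNA:9451-9655, is given with these genes in capitals.
Stretch outside every list: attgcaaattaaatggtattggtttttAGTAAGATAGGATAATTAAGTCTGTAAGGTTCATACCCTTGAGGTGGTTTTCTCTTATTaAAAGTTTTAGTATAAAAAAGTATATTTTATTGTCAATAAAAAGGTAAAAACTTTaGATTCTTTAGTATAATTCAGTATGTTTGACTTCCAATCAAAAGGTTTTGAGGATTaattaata
All of the 8 uncovered tRNA genes but tRNA-Asp, at 14.8%, had a GC content above that of MtDNA as a whole, which was 23.8%.

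Over all 36 genes, a region overlapped 25 in the pooled and IDR lists, 22 in replicate 1 and 19 in replicate 2. The corresponding shares of nuclear genes were 31.6% in the pooled list, 2.17% in the IDR list, 32.2% in replicate 1 and 32.4% in replicate 2. All 12 protein-coding genes were overlapped in the pooled and IDR lists, against 51.7% and 2.08% of nuclear protein-coding genes, which are longer (median 2027 bp against 822.5 bp). For tRNA genes, 11 of 22 compared with 67.2% of nuclear ones in the pooled list and 33.7% in the IDR list. The rule used these lists, so the shares are printed as background and no more. Regions of both replicates overlapped 15 genes, namely 10 coding, 2 rRNA and 3 tRNA genes. Replicate 1 alone overlapped 7, replicate 2 alone 4, and neither 10, of which ND4L and tRNA-Lys were reached by the pooled list. A summit fell inside 12 genes in all these lists, the 2 rRNA genes and the 10 coding genes other than ND4L and ND2.

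**Figure D2:**
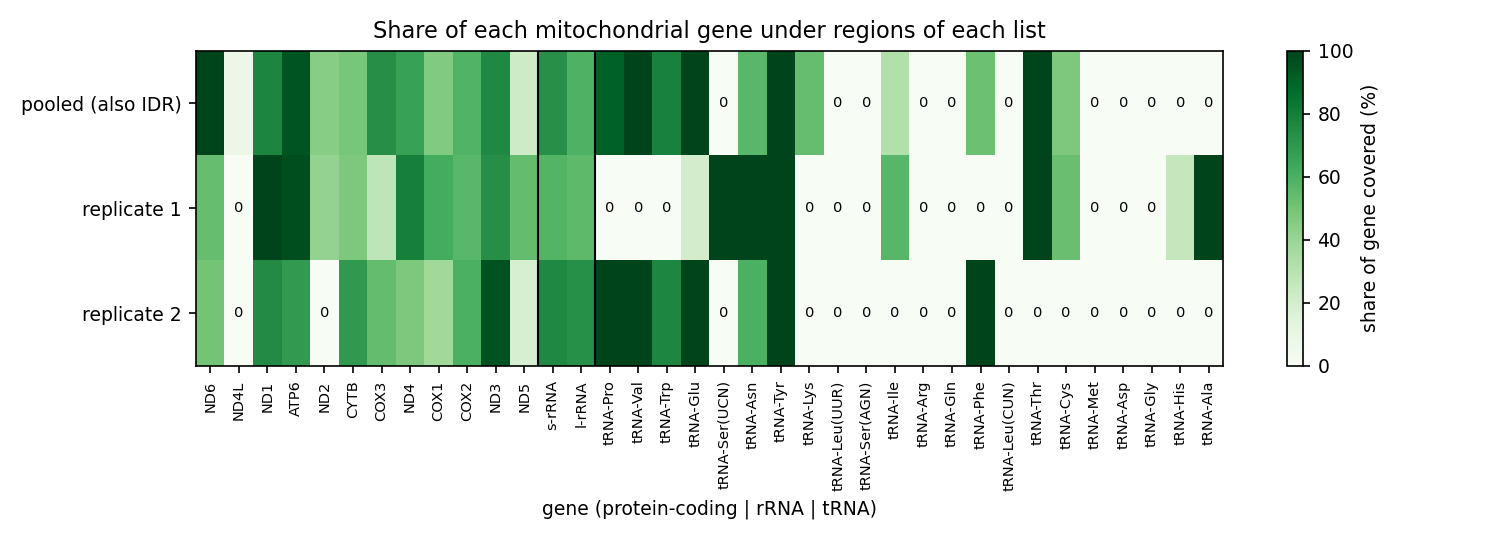
Share of each of the 36 genes, in percent of its length, that lay under regions of the pooled list and of each replicate; darker is more, and 0 is written where no base was covered. Most coding and rRNA genes are covered in part in every row, with ND4L and ND2 as the coding genes at 0 in a replicate, while 8 tRNA genes are at 0 in every row.

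A smaller share of summits was found in both replicates on MtDNA than at nuclear IDR peaks. Of the 23 pooled summits, 18 lay in a region of replicate 1, 19 in one of replicate 2 and 14 in both, or 60.9%. Of the 718 nuclear IDR summits, 713 lay in both, or 99.3%. Counting any overlap of 1 bp, 20 of the 23 regions met both replicates. Over the 14 regions held in both, the replicate summits were a median of 51 bp apart (1 to 215 bp). For the 713 nuclear peaks the median was 22 bp (0 to 213 bp). No test was made of this difference, because the regions on MtDNA abut or overlap and several pooled summits share a replicate region.

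Both replicates placed 12 of the 14 regions among their top 741, and 452 of the 713 nuclear peaks. These sets leave out regions not found in both replicates. Over all regions the counts were 12 of 23 on MtDNA and 452 of 718 nuclear IDR peaks. Spearman's correlation of signal between replicates was 0.54 over the 14 regions, which used 13 regions of each replicate, and 0.69 over the nuclear peaks. Pearson's r on log2 signal was 0.38 over the 14 regions and 0.82 over the nuclear peaks. These points share 2 libraries and were chosen on pooled signal, so the values are descriptive. Replicate 2 gave the better rank in 9 regions, replicate 1 in 4, and 1 COX1 region ranked 6 in both. At the nuclear peaks replicate 2 was also ahead more often, in 388 against 322.

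**Figure D3:**
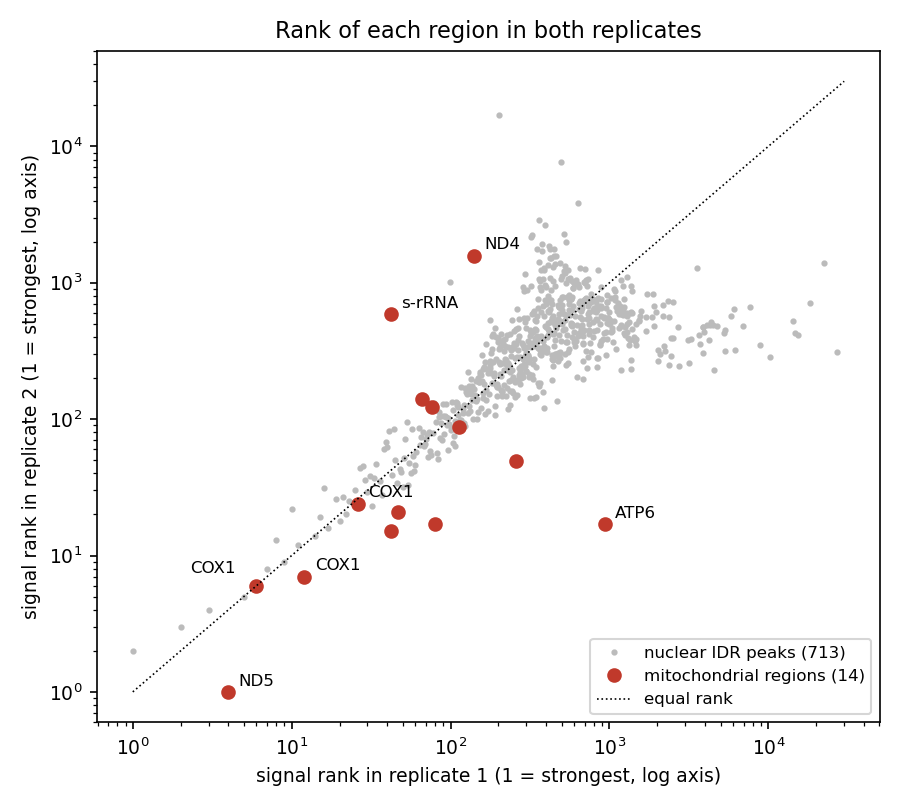
Signal rank of each region in replicate 1 and replicate 2 (log axes, 1 is strongest) for the 14 mitochondrial regions found in both and the 713 nuclear IDR peaks; the dotted line marks equal rank. ND5 (ranks 4 and 1) and the COX1 regions lie at the strong end of both axes. Among the mitochondrial points, 1 region each of ATP6, ND4 and s-rRNA lies farthest from the line. The ATP6 point takes its replicate 2 rank, and the s-rRNA point its replicate 1 rank, from a region shared with another point of the same gene.

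The main non-coding stretch, 13328 to 13794, was almost free of regions. It spans 467 bp with a GC content of 6.85%, and 69 bp of it lay under a region of replicate 1 and 0 bp under the pooled list or replicate 2. The first part of the stretch and its junction with tRNA-Ala, MtDNA:13327-13447, is shown because it holds the start of the longest run of A and T on MtDNA, 310 bp from 13357 to 13666, in capitals. The replicate 1 region ended at 13396, within the printed part.
AT-rich stretch: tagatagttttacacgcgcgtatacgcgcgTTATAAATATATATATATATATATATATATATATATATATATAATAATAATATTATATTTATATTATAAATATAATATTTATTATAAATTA
Of 13759 overlapping 36-base words of MtDNA, 180 occurred more than once in MtDNA, all between 13363 and 13658. Another measure, words also found in the nuclear chromosomes, gave 12, or 0.0872%, all in 13358 to 13404. The treatment of reads that map to several places is not given in the sources used, and the part of read mapping in this gap was not tested. Elsewhere, a blastn search found 1 nuclear match, 126 bp of CYTB at 96.0% identity, at 4903 to 5028, which no pooled region overlapped.

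The longest stretch outside every list was 601 bp, from 3277 to 3877, across tRNA-Leu(UUR), tRNA-Ser(AGN) and the start of ND2. Its GC content was 24.3%, close to that of MtDNA. Pooled summits around the circle were a median of 637 bp apart (200 to 1464 bp).

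Base composition was compared between summits and the rest of MtDNA. The 201 bases centred on the pooled summits had a GC content of 27.6% ± 4.14 (SD, n = 23), those of replicate 2 28.5% ± 3.89 (SD, n = 19) and those of replicate 1 23.8% ± 4.98 (SD, n = 24). All such windows of MtDNA averaged 23.8%, and the 718 nuclear IDR summits 48.6% ± 6.31 (SD). Windows of replicate 2 were thus richer in GC than MtDNA and those of replicate 1 were not. Spearman's correlation of signal with window GC was 0.38 in the pooled list, 0.29 in replicate 1 and 0.45 in replicate 2. Neighbouring windows share bases, so these are descriptive. The 6 strongest pooled summits had 30.5% ± 3.01 GC and the 6 weakest 25.9% ± 4.24 (SD). The part of base composition in the signal was not tested. Signal was also higher in narrower regions, with Spearman's correlations with width of -0.60, -0.32 and -0.48 in the pooled list, replicate 1 and replicate 2. All but 6 of the 23 pooled regions had a width of 410 bp, the median of the list, and the narrowest spanned 164 bp. Likewise, all but 3 of the 24 regions of replicate 1 and all but 5 of the 19 of replicate 2 had their list's median width. The correlations with width thus rest on few narrower regions.

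**Figure D4:**
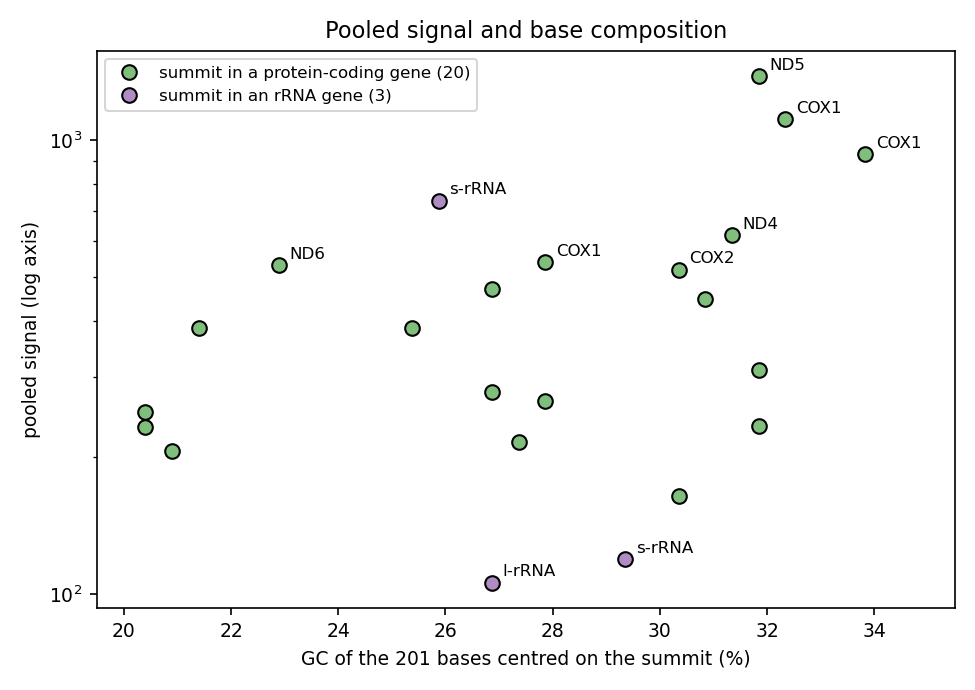
Pooled signal (log axis) of the 23 mitochondrial regions against the GC content, in percent, of the 201 bases centred on their summits, coloured by the class of gene at the summit. The 3 strongest regions, in ND5 and COX1, sit between 31.8 and 33.8% GC, and the 2 weakest, in rRNA genes, at 26.9 and 29.4%.

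The octamer that POU proteins are known to bind, ATGCAAAT, or ATTTGCAT on the other strand, occurred 0 times on MtDNA and hence in 0 of the 23 summit windows. It was present in 551 of the 29977 nuclear pooled windows of the same length, or 1.84%. At so low a share, 23 windows are too few to tell 0 from it, so no contrast is drawn. The search was for exact letters on both strands, which are reverse complements and do not otherwise overlap, and says nothing of other binding sequences.

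Most subunits that work beside the mitochondrially encoded proteins are nuclear genes. The 55 nuclear genes taken here, in 6 lists, also included complex II, cytochrome c, assembly genes and genes for upkeep and transcription of MtDNA. Of the 55, 8 had an IDR peak between 1000 bp upstream of the gene and its end, or 14.5%. A pooled region was there in 48, or 87.3%. Among all nuclear protein-coding genes the shares were 3.46% and 61.8%. The lists were drawn up with results of these data known, so no test was made. The 14 nuclear complex I genes had 1 with an IDR peak, nuo-2, at rank 532. Among 9 genes of complex III and cytochrome c, the IDR peaks were at cyc-2.1, a cytochrome c, at rank 289 and at ucr-2.2, a core subunit of complex III, at rank 659. Of 13 complex IV and assembly genes, 4 subunit genes had one: cox-6A at rank 221, cox-6B at 248, cox-5A at 581 and cox-5B at 603. None of the 4 complex II or 10 nuclear complex V genes had an IDR peak. In the list for upkeep and transcription of MtDNA, mtss-1, which encodes a single-stranded DNA-binding protein, had one at rank 237 and the other 4 did not. In the pooled ranking, all 8 stood below the median rank of 81 of the mitochondrial regions themselves.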

How the data were processed

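Chromatin immunoprecipitation followed by sequencing gave 4 lists of regions on assembly ce11, per the labels. The authors deposited, for each region, a score and a signal relative to 1 control; the sources used here do not name the caller, aligner or read filters. Sizes of signals were compared within a list and ranks between lists of 30000 regions. Between replicates, signals were compared only through correlations. Depth is unknown, so no counting error of reads can be given.

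Regions were placed on genes of Ensembl release 115 (WBcel235, the assembly ce11 names), with mitochondrial gene names and sequence from RefSeq. A gene counted as overlapped at 1 bp. A pooled summit was found in a replicate if it lay in one of that replicate's regions; of several, the one with the nearest summit was taken. GC content was taken over 100 bp to each side of a summit. Nuclear copies were sought with blastn 2.17.0 (E-value 1e-05) and as 36-base words. Overlaps were checked against bedtools 2.31.1 on simulated data. Python 3.11.15, pandas 2.3.3 and scipy 1.17.1 were used. By rule, every coding and rRNA gene was named, tRNA genes where no list overlapped them or at the edge of a stretch without regions, and partner genes where an IDR peak lay at them, at most 4 per list. Other tRNA genes were named after their values were seen. Members, lists and alternatives were chosen with earlier results of these data known.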

Additional observations from a re-analysis of the deposited data

How the results depend on the processing

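With 1 replicate left out, the other replicate's own list stood in for the pooled list, and its 741 strongest regions for the IDR peaks. The whole lists gave 19 to 22 overlapped genes, 19 to 24 regions on MtDNA and 45.7 to 55.8% coverage. The 741 strongest gave 18 to 23 regions on MtDNA, 44.3 to 54.2% coverage and 19 to 22 overlapped genes. A stricter rule of overlap moved the count of genes from 25 to 5 when the whole gene had to be covered and to 13 when it had to hold a summit, in the pooled and IDR lists alike. Merging overlapping regions left 15 blocks. With replicate summits required within 50 bp of the pooled one, 6 regions were found in both replicates in place of 14. Agreement in signal on MtDNA was 0.38 as Pearson's r on log2 signal, against 0.82 over the nuclear IDR peaks. In a choice made after seeing the data, it was 0.61 as Spearman's when the strongest region at a summit replaced the nearest. The cause of these moves was not tested. The 370 strongest pooled regions kept 21 of the peaks and 49.0% coverage, and the 1500 strongest gave 23. No paired analysis was possible because there is 1 group and the result comes from no test. Unknown depth, a single control and 2 replicates limit all values.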
